A study of Mus musculus with 2 samples.

Results

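The genes described here encode the proteasome, its regulators and its assembly factors. They were taken by name, as every row of the count table whose symbol starts with Psma, Psmb, Psmc, Psmd, Psme, Psmf or Psmg, which gave 49 of 23337 genes. The prefix also takes Psmc3ip, a meiotic recombination factor that is no part of the proteasome. It is included in counts over all 49 genes and belongs to none of the groups by role. RNA was measured in Treg cells, a class of CD4 T cells that express Foxp3 and dampen immunity, sorted from injured skeletal muscle of 8-week-old male mice of the Foxp3-IRES-GFP reporter strain on the C57BL/6 background. All mice received cardiotoxin, a snake venom toxin that kills muscle fibres, in the tibialis anterior, quadriceps and gastrocnemius. The IL-33 group also received 0.3 ug of recombinant IL-33, an alarm cytokine released by damaged tissue, and the PBS group received buffer in its place. Cells were taken 4 days later, 5000 per library. The number of mice behind a library is not given in the sources used here.

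There was 1 library per group, so no value below has a replicate check or a test, and "higher" and "lower" compare 2 libraries rather than 2 treatments. The IL-33 library held 4080791 counts and the PBS library 1573707, and levels are given as CPM, counts scaled to a common library total. A single count was worth 0.245 CPM with IL-33 and 0.635 CPM with PBS, as the libraries are called from here on. The intervals given with ratios are exact 95% intervals for counting error alone. Treg and T cell markers were abundant, with a summed level over 6 markers of 9051 CPM with IL-33 and 9560 CPM with PBS, although Foxp3 itself had 40 counts with IL-33 and 1 count with PBS. Markers of other cells were low. With IL-33 their summed levels were 24.8 CPM for macrophages, 16.4 CPM for dendritic cells, 4.41 CPM for neutrophils, 49.3 CPM for endothelium, 21.8 CPM for NK and CD8 T cells, 2.70 CPM for B cells and 0.245 CPM for muscle. With PBS they were 40.7 CPM for macrophages, 31.8 CPM for dendritic cells, 5.72 CPM for neutrophils, 52.1 CPM for endothelium, 13.3 CPM for NK and CD8 T cells, 3.18 CPM for B cells and 1.27 CPM for muscle. For fibroblasts, 0 of 5 markers were detected with IL-33 and 3 of 5 with PBS (Col3a1, Dcn and Pdgfra, summing to 66.1 CPM), with Col1a1 and Lum at 0 in both. The part of these cells in the results below was not tested. In bulk RNA, fewer cells of a type and less RNA per cell cannot be told apart.

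The proteasome degrades proteins tagged with ubiquitin. Its core, called 20S, is a barrel of stacked rings: the alpha rings form the gate, and the beta rings carry the cutting sites. A cap, called 19S, sits on the barrel; its base holds ATPases that unfold the substrate, and its lid removes the ubiquitin. In lymphocytes and in cells exposed to interferon-gamma, the cutting subunits Psmb5, Psmb6 and Psmb7 are partly replaced by Psmb8, Psmb9 and Psmb10, which gives the immunoproteasome, a form known for making peptides that suit MHC class I.

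In these libraries the alpha and constitutive beta subunits of the barrel were higher with IL-33. The immunoproteasome subunits and the base of the cap had summed ratios near 1. The alpha subunits summed to 2308 CPM with IL-33 and 1859 CPM with PBS, giving a ratio of 1.24 (1.19 to 1.29). The constitutive beta subunits summed to 2048 CPM with IL-33 and 1545 CPM with PBS, giving a ratio of 1.33 (1.27 to 1.39). The base of the cap summed to 1258 CPM with IL-33 and 1345 CPM with PBS, giving a ratio of 0.935 (0.889 to 0.984). The lid summed to 822 CPM with IL-33 and 756 CPM with PBS, giving a ratio of 1.09 (1.02 to 1.16). Another scaling (trimmed mean of M-values, TMM) gave ratios of 1.35 for the alpha and 1.44 for the constitutive beta subunits. Under TMM the base was at 1.02 and the lid at 1.18. Set against the base within each library, which cancels any scaling between the libraries, the constitutive core was 1.37 times as abundant with IL-33 as with PBS (1.29 to 1.45). It was 1.32 times (1.25 to 1.40) without Psma5 and Psmb6, its members farthest from 1 and chosen for that after their values were seen, and 1.41 times (1.31 to 1.51) without the members that have near-identical copies elsewhere in the genome. Set against the lid in the same way, the constitutive core was 1.18 times as abundant with IL-33 as with PBS (1.09 to 1.27).

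**Figure D1:**
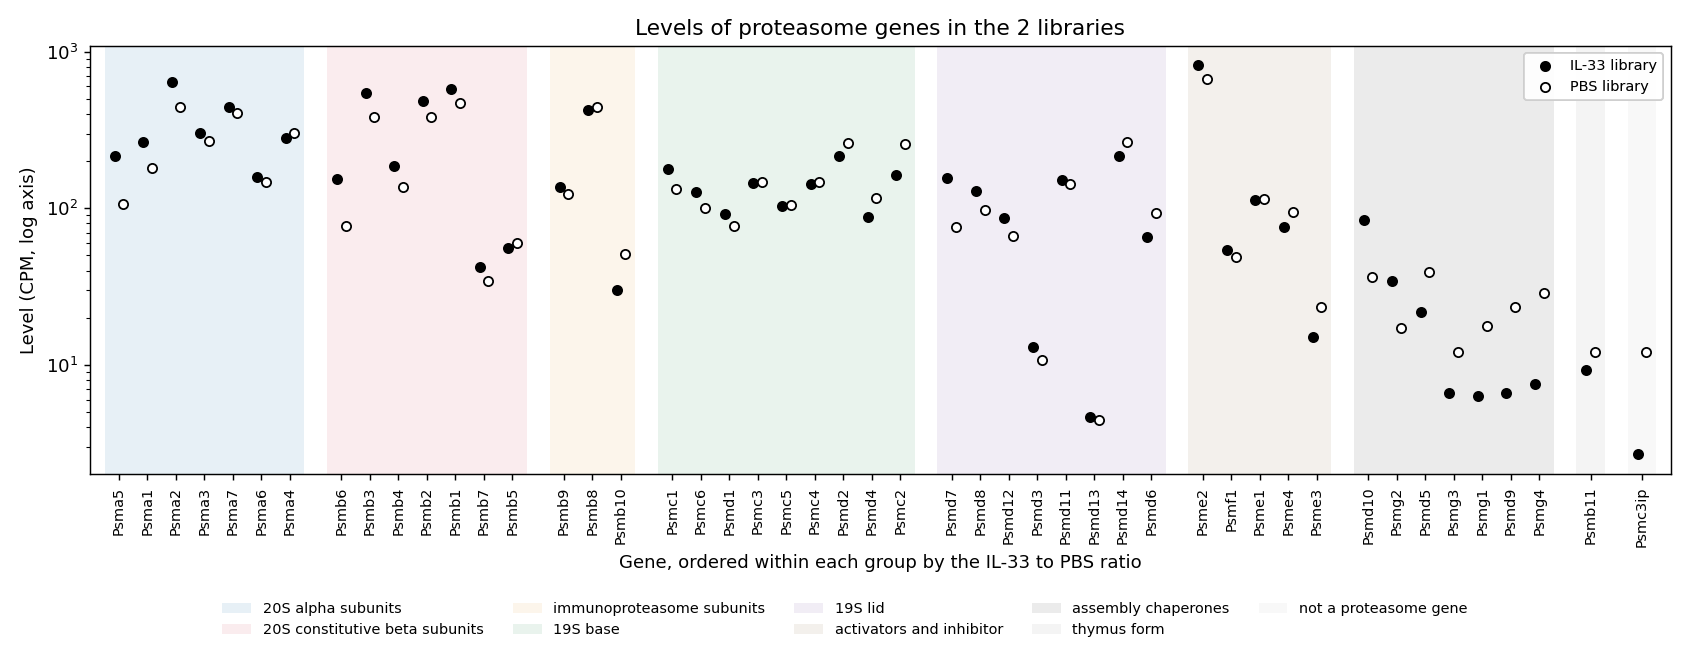
Level of each proteasome gene in CPM on a log axis, with the IL-33 library as filled points and the PBS library as open points, grouped by role in the complex; Psma8, with 0 counts in both libraries, is not drawn. Filled points lie above open ones in 6 of the 7 alpha subunits and 6 of the 7 constitutive beta subunits drawn, and below them in 5 of the 7 assembly chaperones.

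Across all 49 genes, 47 reached the floor of 5 CPM in at least 1 library. The others were Psma8, the testis alpha subunit, with 0 counts in both libraries, and Psmd13, a lid subunit, with 19 counts with IL-33 and 7 with PBS. Log2 folds, IL-33 over PBS, were taken on CPM plus a pseudocount of 1. They had a median of 0.09 over the 47 genes, beside -0.08 over the 9005 genes of the table that reached the floor. They were above 0 for 25 of the 47 genes, and for 45.6% of all 9005. Of the 47 genes, 3 were at least 2-fold higher and 4 at least 2-fold lower, where 15.5% of all genes over the floor were 2-fold higher and 16.3% were 2-fold lower. One of the lower genes was Psmc3ip, and the others were assembly chaperones. Without Psmc3ip, 46 genes remained, with 3 at least 2-fold lower, 8 at least 1.5-fold lower and a median of 0.11. At 1.5-fold, 5 were higher and 9 lower, where the shares of all genes were 23.5% higher and 27.4% lower. As shares of the 47, these counts come to 6.38% and 8.51% at 2-fold and 10.6% and 19.1% at 1.5-fold, all under the background, which holds many thinly counted genes.

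Well counted genes, with a mean of at least 50 CPM, make a closer background. Of the 47 genes, 35 met this mark, and their log2 fold had a median of 0.15 and an SD of 0.43 across genes; over all 3566 well counted genes the median was -0.10 and the SD 0.57. Of the 35, 3 were 2-fold higher, against a background of 3.53%, and 0 were 2-fold lower, against 4.96%. At 1.5-fold, 4 were higher (background 10.7%) and 1 was lower (background 17.4%). The counting interval lay wholly above 1 for 17 of the 35, where 26.3% of well counted genes had such an interval, and wholly below 1 for 6 of the 35, where the share was 39.4%. As shares of the 35, intervals above 1 made up 48.6% and intervals below 1 made up 17.1%. On library totals the members thus leaned toward IL-33 while well counted genes as a whole leaned toward PBS. Transcript length moved with this: 24 of the 35 were among the shortest well counted genes, whose median was 0.09, and centring each gene on those of like length brought the median of the 47 to 0.04. By group, centring raised the medians of the alpha subunits to 0.31, the constitutive beta subunits to 0.37 and the lid to 0.31. It lowered those of the base to -0.13, the immunoproteasome to -0.15, the activators to -0.11 and the assembly chaperones to -0.87. The part of length in the lean was not tested. TMM scaling would add about 0.12 to every log2 fold, members and background alike. This shift is larger than the -0.10 median of well counted genes, so their lean toward PBS rests on library totals. The shares of intervals on each side of 1 rest on the same scaling.

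**Figure D2:**
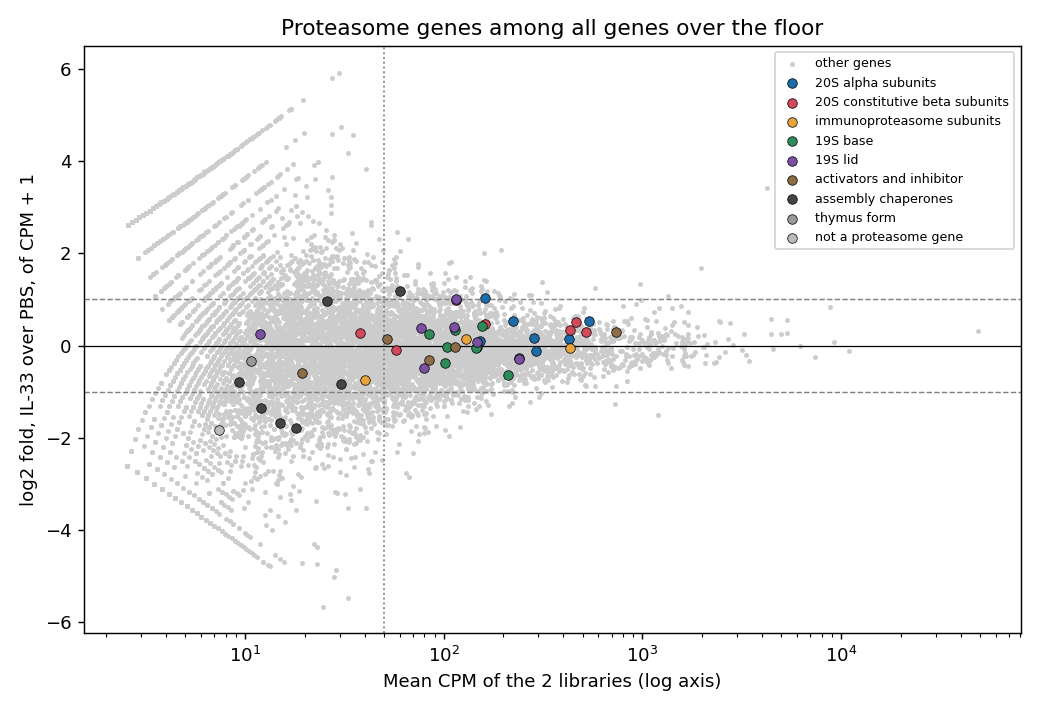
Log2 fold of IL-33 over PBS (CPM plus 1) against mean CPM on a log axis for every gene over the floor, with proteasome genes coloured by role; dashed lines mark 2-fold and the dotted line 50 CPM. Right of the dotted line the proteasome genes stay between -0.64 and 1.19, and the 4 genes at or under -1 lie left of it.

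Among the alpha subunits, Psma5 stood apart. It had 885 counts with IL-33 and 167 with PBS, or 217 CPM with IL-33 against 106 CPM with PBS, giving a ratio of 2.04 (1.73 to 2.43). Psma5 is also one of the genes whose reads are least certain, since 81.4% of its transcript lies in near-identical copies, the longest of them the processed pseudogene Gm8394. Psma1 was at 264 CPM with IL-33 and 182 CPM with PBS, giving a ratio of 1.45 (1.27 to 1.66), and Psma2 at 639 CPM with IL-33 and 444 CPM with PBS, giving a ratio of 1.44 (1.32 to 1.57). These are structural ring subunits with no known cutting site. Psma3, whose log2 fold of 0.17 was the group's median, was at 302 CPM with IL-33 against 269 CPM with PBS, and Psma7 at 446 CPM with IL-33 against 406 CPM with PBS. Psma6 had a ratio of 1.07 (0.918 to 1.25) and Psma4 a ratio of 0.928 (0.833 to 1.03), both with intervals that held 1. So 3 of the 7 alpha subunits carried most of the group's difference.

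The constitutive beta subunits were the group with the highest median log2 fold, 0.33, held by Psmb2 (484 CPM with IL-33, 385 CPM with PBS). Psmb6, which carries the caspase-like cutting site, had 630 counts with IL-33 and 121 with PBS, or 154 CPM with IL-33 against 76.9 CPM with PBS. Its ratio was 2.01 (1.65 to 2.46), and its log2 fold of 0.996 fell just short of the 2-fold mark, which Psmd7 (1.01) and Psma5 (1.02) just passed. The other cutting subunits did not follow it. Psmb5, which carries the chymotrypsin-like site, was at 55.9 CPM with IL-33 and 59.7 CPM with PBS, giving a ratio of 0.935 (0.732 to 1.20). Psmb7, which carries the trypsin-like site, was at 41.9 CPM with IL-33 against 34.3 CPM with PBS, giving a ratio of 1.22 (0.894 to 1.69). The structural subunits Psmb1, Psmb2, Psmb3 and Psmb4 had ratios of 1.23 to 1.42, each with an interval above 1, led by Psmb3 at 547 CPM with IL-33 and 384 CPM with PBS.

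The immunoproteasome subunits showed no shared direction. Psmb8, which takes the place of Psmb5, was the most abundant by counts, at 1737 with IL-33 and 696 with PBS. That is 426 CPM with IL-33 against 442 CPM with PBS, giving a ratio of 0.962 (0.881 to 1.05). Psmb9, which takes the place of Psmb6, was at 136 CPM with IL-33 and 123 CPM with PBS, giving a ratio of 1.11 (0.943 to 1.32). Psmb10, which takes the place of Psmb7, was the only one of the 3 past 1.5-fold, with 122 counts with IL-33 and 80 with PBS. It stood at 29.9 CPM with IL-33 against 50.8 CPM with PBS, giving a ratio of 0.588 (0.440 to 0.790). Summed, the 3 genes were at 592 CPM with IL-33 and 616 CPM with PBS, giving a ratio of 0.962 (0.892 to 1.04). Their median log2 fold was -0.06, and 0.07 under TMM scaling, where the summed ratio was 1.05, so no direction held. Psmb11, the thymus form, had 38 counts with IL-33 and 19 with PBS, 9.31 CPM with IL-33 against 12.1 CPM with PBS.

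Both forms take the same places in the ring, so the balance of their mRNAs was compared within each library. Protein was not measured, so this balance does not give the make-up of the particles. Of all counts for the 6 cutting subunits, the immunoproteasome genes took 70.1% with IL-33 (exact binomial 95% interval 68.6 to 71.7) and 78.3% with PBS (75.9 to 80.5). Per kilobase of transcript the share was 56.9% with IL-33 and 67.6% with PBS, and per kilobase of coding sequence 69.2% with IL-33 and 77.7% with PBS. The odds of an immunoproteasome count were 0.652 times as high with IL-33 as with PBS (0.557 to 0.762). Much of the level of this share rests on Psmb8 and Psmb5, and 88.4% of the Psmb5 transcript lies in a near-identical processed pseudogene, so that Psmb5 reads may be missing from its count. Without that pair the share of counts was 45.9% with IL-33 and 60.9% with PBS. The difference between the libraries came from 2 of the 3 pairs. Psmb9 counts per Psmb6 count were 0.884 with IL-33 and 1.60 with PBS, an odds ratio of 0.555 (0.426 to 0.720). Psmb10 per Psmb7 was 0.713 with IL-33 and 1.48 with PBS, an odds ratio of 0.482 (0.311 to 0.745). Both genes of this last pair were thinly counted, Psmb7 with 171 counts with IL-33 and 54 with PBS. Psmb8 per Psmb5 was 7.62 with IL-33 and 7.40 with PBS, an odds ratio of 1.03 (0.788 to 1.34). In the Psmb9 pair the constitutive partner Psmb6 was the one that differed, and in the Psmb10 pair the difference lay more in Psmb10 than in Psmb7. Per kilobase of transcript, Psmb8 outnumbered Psmb5 by 4.21 with IL-33 and 4.09 with PBS, with the same doubt over Psmb5, whereas Psmb9 stood at 0.522 of Psmb6 with IL-33 and 0.941 with PBS.

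**Figure D3:**
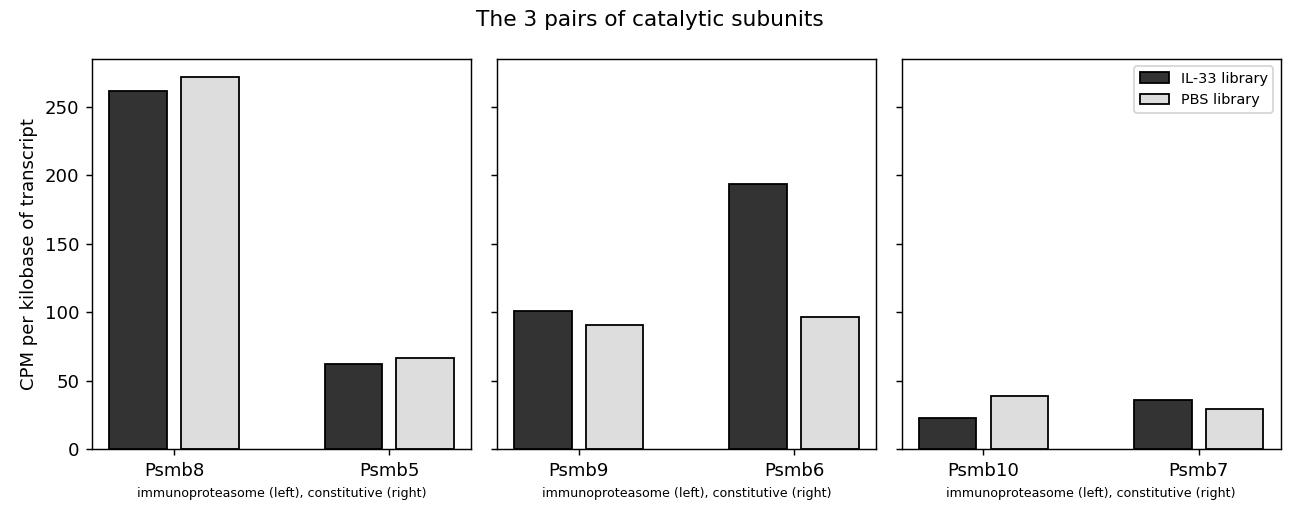
Level of each immunoproteasome subunit beside the constitutive subunit whose place it takes, in CPM per kilobase of transcript, with the IL-33 library in dark bars and the PBS library in light bars. The Psmb8 and Psmb5 bars are alike between libraries, Psmb6 reaches 193 with IL-33 against 96.4 with PBS, and Psmb10 reaches 22.8 with IL-33 against 38.8 with PBS.

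In the base of the cap, members went both ways. Of the 6 ATPases, Psmc1 at 1.34 (1.15 to 1.57) and Psmc6 at 1.27 (1.06 to 1.53) were higher, and Psmc3, Psmc4 and Psmc5 had ratios of 0.964 to 0.986 with intervals that held 1. Psmc2 was the only well counted proteasome gene at least 1.5-fold lower. It had 670 counts with IL-33 and 404 with PBS, or 164 CPM with IL-33 against 257 CPM with PBS, giving a ratio of 0.640 (0.564 to 0.725). The ATPases form a single ring with 1 copy of each, yet their mRNA ratios ran between 0.640 and 1.34. Outside the ring, the scaffold subunit Psmd2 was at 216 CPM with IL-33 and 262 CPM with PBS, giving a ratio of 0.826 (0.734 to 0.931), with 98.2% of its transcript in a near-identical pseudogene. Psmd4, a ubiquitin receptor, was at 88.2 CPM with IL-33 and 116 CPM with PBS, giving a ratio of 0.763 (0.636 to 0.917). The other scaffold, Psmd1, had a ratio of 1.20 (0.974 to 1.48). The median log2 fold of the 9 base members was -0.03, that of Psmc5, and 0.09 under TMM scaling.

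The lid held the widest spread of the core and cap groups. Psmd7, which pairs with the deubiquitinase Psmd14, had 633 counts with IL-33 and 120 with PBS, or 155 CPM with IL-33 against 76.3 CPM with PBS, giving a ratio of 2.03 (1.67 to 2.49). Psmd14 itself, the enzyme that cuts ubiquitin chains off the substrate, went the other way, at 217 CPM with IL-33 and 264 CPM with PBS, giving a ratio of 0.822 (0.731 to 0.926). Under TMM scaling the Psmd14 ratio was 0.894, and the same factor moves its upper limit past 1. Of the structural lid subunits, Psmd8 at 1.32 (1.10 to 1.59) and Psmd12 at 1.30 (1.04 to 1.63) were higher, and Psmd6 was lower at 0.706 (0.575 to 0.869). Psmd11 was at 151 CPM with IL-33 and 143 CPM with PBS, giving a ratio of 1.06 (0.908 to 1.24). The group's median of 0.25 was that of Psmd3, which had 53 counts with IL-33 and 17 with PBS, so the median rests on a thinly counted gene.

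**Figure D4:**
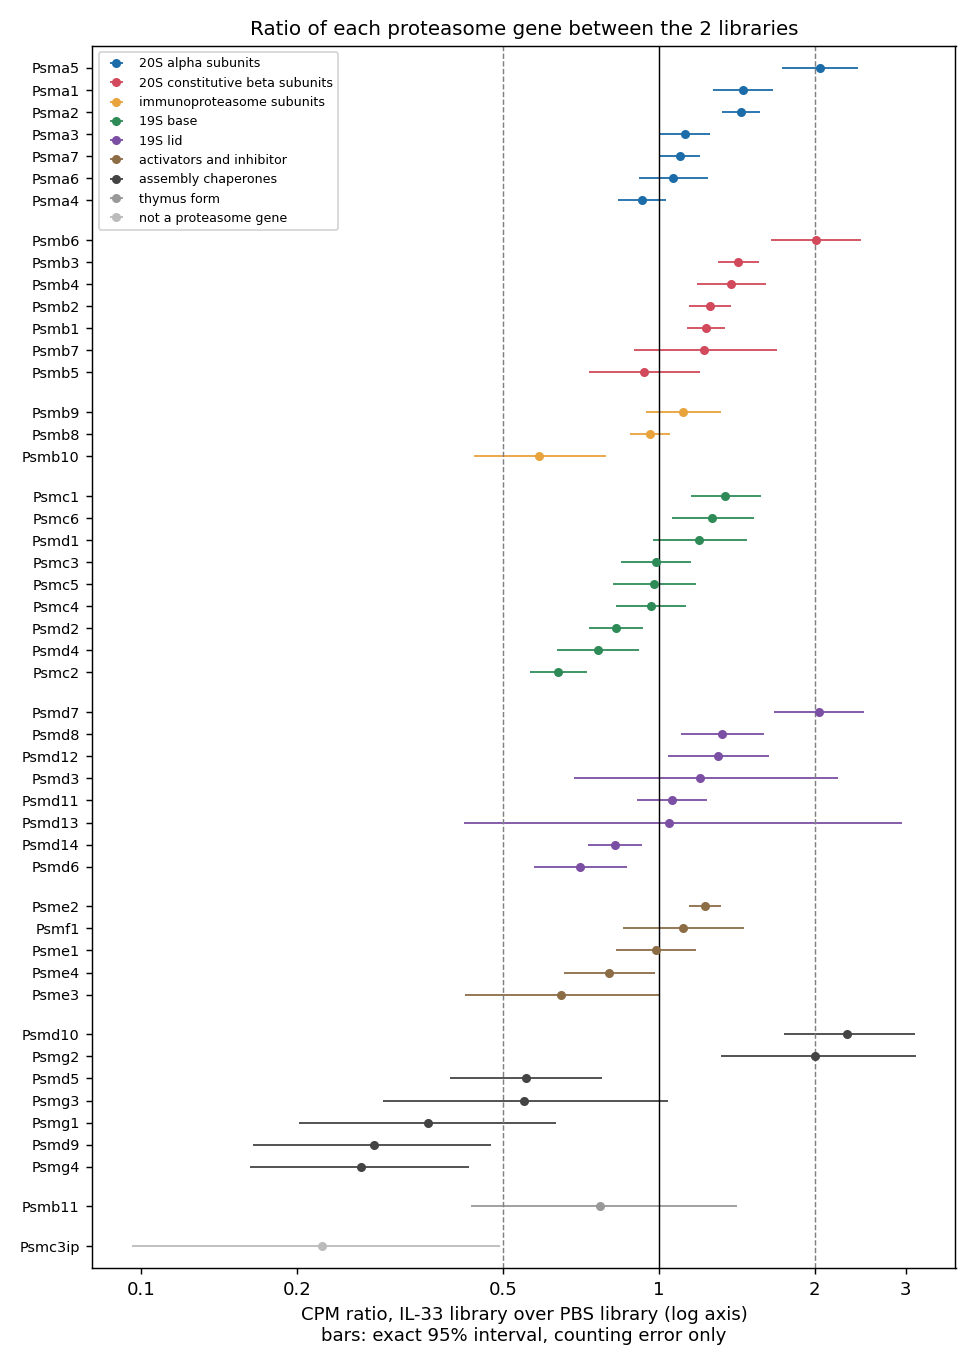
CPM ratio of the IL-33 library over the PBS library for each proteasome gene on a log axis, with exact 95% intervals that cover counting error alone; the solid line marks 1 and dashed lines 0.5 and 2. Intervals lie above 1 for 5 alpha and 5 constitutive beta subunits and below 1 for 0 of either group, while 4 assembly chaperones lie below 1 and 2 above it.

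The activators PA28 alpha (Psme1) and PA28 beta (Psme2) form a ring that opens the barrel, are induced by interferon-gamma and lie 5912 bp apart on chromosome 14 (Psme1 at 55578123 to 55581529, Psme2 at 55587441 to 55591113, GRCm38). Psme2 had the highest counts of all proteasome genes, 3333 with IL-33 and 1047 with PBS. It stood at 817 CPM with IL-33 against 665 CPM with PBS, giving a ratio of 1.23 (1.14 to 1.32), and 82.5% of its transcript is shared with the copy Psme2b. Psme1 was at 113 CPM with IL-33 and 114 CPM with PBS, giving a ratio of 0.986 (0.828 to 1.18). Per kilobase of transcript Psme2 was at 849 and Psme1 at 101 with IL-33, and at 692 and 103 with PBS, while the proteins share a ring. Psme3, the nuclear PA28 gamma, was thin, with 62 counts with IL-33 and 37 with PBS, giving a ratio of 0.646 (0.423 to 0.999). Psme4, the nuclear activator PA200, was at 75.5 CPM with IL-33 and 94.0 CPM with PBS, giving a ratio of 0.803 (0.658 to 0.983). Psmf1, the inhibitor PI31, was at 54.4 CPM with IL-33 against 48.9 CPM with PBS, giving a ratio of 1.11 (0.854 to 1.46).

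The assembly chaperones, which build the rings and leave the finished particle, held both the highest and the lowest ratios of any proteasome gene. Psmd10, the oncoprotein gankyrin, which helps assemble the ATPase ring, was the highest and the only well counted one. It had 342 counts with IL-33 and 57 with PBS, or 83.8 CPM with IL-33 against 36.2 CPM with PBS, giving a ratio of 2.31 (1.74 to 3.12). Psmg2, which with Psmg1 guides the alpha ring, had 140 counts with IL-33 and 27 with PBS, giving a ratio of 2.00 (1.32 to 3.14). Its partner Psmg1 was on the other side, with 26 counts with IL-33 and 28 with PBS, 6.37 CPM with IL-33 against 17.8 CPM with PBS and a ratio of 0.358 (0.202 to 0.634). The second pair of alpha ring chaperones was low as well. Psmg4 had 31 counts with IL-33 and 45 with PBS, giving a ratio of 0.266 (0.163 to 0.429), and Psmg3 had 27 with IL-33 and 19 with PBS, giving a ratio of 0.548 (0.294 to 1.04). Of the base chaperones that act beside Psmd10, Psmd9 had 27 counts with IL-33 and 37 with PBS, giving a ratio of 0.281 (0.165 to 0.475), and Psmd5 had 89 with IL-33 and 62 with PBS, giving a ratio of 0.554 (0.396 to 0.778). So 3 of the 7 were at least 2-fold lower and 1 at least 2-fold higher, with a median log2 fold of -0.82. Genes as thin as these scattered widely across the whole table, as the plot against mean CPM shows, and 16.3% of all genes over the floor were 2-fold lower. That share takes in well counted genes, of which 4.96% were 2-fold lower, so the share among thin genes alone was higher. Psmc3ip, the recombination factor, had 11 counts with IL-33 and 19 with PBS, giving a ratio of 0.223 (0.0960 to 0.494).

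Levels within the particle were uneven in both libraries. Per kilobase of transcript, the constitutive beta subunits ran between 36.1 for Psmb7 and 715 for Psmb3 with IL-33, a 19.8-fold range, and between 29.6 and 502 for the same genes with PBS, a 17.0-fold range. The lid subunits over the floor ran between 6.05 for Psmd3 and 141 for Psmd14 with IL-33, a 23.3-fold range. With PBS the lid range was 34.0-fold. The low ends of the beta and lid ranges, Psmb7 and Psmd3, were thinly counted genes. Above Psmd3, the next lowest lid gene was Psmd12, at 45.6 with IL-33 and 35.0 with PBS. Above Psmb7 came Psmb5, at 62.1 with IL-33 and 66.4 with PBS, with the doubt over its copies given above. The alpha subunits were closer, with ranges of 4.59-fold with IL-33 and 5.19-fold with PBS. The base was similar, at 3.81-fold with IL-33 and 5.82-fold with PBS. Per kilobase of coding sequence the ranges were of like size, for the constitutive beta subunits 17.7-fold with IL-33 and 15.8-fold with PBS, and for the lid 28.5-fold with IL-33 and 41.7-fold with PBS. The order of the genes was nearly the same in both libraries, with a Spearman rho of 0.95 over the 47 genes per kilobase. This rho describes genes that share 2 libraries and a set of lengths, and carries no test.

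The proteasome genes lay on 16 chromosomes, with few neighbours. Psmb9 and Psmb8 lay 9957 bp apart on chromosome 17, in the MHC region, at log2 folds of 0.15 and -0.06. Psmb9 (34181987 to 34187764) stands head to head with Tap1, which encodes a subunit of the peptide transporter, and exons of the genes overlap by 212 bases on opposite strands. Tap1, taken up after its values were seen, had 450 counts with IL-33 and 325 with PBS, or 110 CPM with IL-33 against 207 CPM with PBS, giving a ratio of 0.534 (0.462 to 0.618). Tap2, of the same transporter, was thinly counted and went the other way, with 64 counts with IL-33 and 12 with PBS. The Tap2 ratio was 2.06 (1.10 to 4.19). Psmb9 counts per Tap1 count were 2.08 times as high with IL-33 as with PBS (1.67 to 2.61). Psmb5 and Psmb11 lay 3411 bp apart on chromosome 14, at log2 folds of -0.09 and -0.34. Most of the proteasome transcripts were short, with a median of 1440 nt over all 49 genes. Well counted genes were set in 5 ranges of transcript length. Up to 1678 nt the median log2 fold was 0.14 for 24 proteasome genes and 0.09 for all 709 genes of the range. Between 1679 and 2701 nt it was 0.32 for 4 proteasome genes and -0.09 for all 708 genes. Between 2702 and 3790 nt it was 0.17 for 5 proteasome genes and -0.14 for all 708 genes. The longer ranges held 1 proteasome gene each, Psmf1 at 0.15 beside a median of -0.17, and Psme4 at -0.31 beside a median of -0.18.

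Promoters were read to see what the genes share in sequence. RefSeq promoters on GRCm38.p6, each from 250 bases before to 50 after the start, were found for 41 of the 49 genes. The CCAAT box, bound by NF-Y, was present on either strand in 15 of the 41 (36.6%), beside 41.1% of 27025 genes in the table of promoters. The core of the antioxidant response element, TGACNNNGC, which is bound by Nfe2l1 and Nfe2l2, occurred in 6 of the 41 (14.6%), beside 14.0%. The core of the interferon response element, GAAA and GAAA with 2 bases between them, occurred in 5 of the 41 (12.2%), beside 3.99%, and in 0 of the 3 immunoproteasome genes. A kappa B motif, searched as the exact letters of the kappa light chain enhancer, occurred in 0 of the 41, beside 0.174%. The short stretches around some of these matches are shown, 5′ to 3′ on the gene's strand with the match in capitals, for the cutting subunits with an antioxidant core, for the assembly chaperones that were lowest, for the PA28 gene with an interferon core, and for the CCAAT box of Psmb9.
Psmb6, chr11:70525338-70525366, plus strand, antioxidant core: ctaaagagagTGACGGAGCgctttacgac
Psmb5, chr14:54618024-54618052, minus strand, antioxidant core: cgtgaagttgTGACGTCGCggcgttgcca
Psmd9, chr5:123228149-123228177, plus strand, antioxidant core: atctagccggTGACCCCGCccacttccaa
Psmd9, chr5:123228021-123228050, plus strand, interferon core: gggacagaatGAAAAAGAAAggaatgaaca
Psmg4, chr13:34162969-34162998, plus strand, interferon core: gcgcgcatctGAAAGTGAAAgagcgttccg
Psme1, chr14:55578493-55578522, plus strand, interferon core, read on the other strand: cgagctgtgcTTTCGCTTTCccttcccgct
Psmb9, chr17:34187324-34187348, minus strand, CCAAT box, read on the other strand: gcagccgctgATTGGaaagccgagc
The genes that share a motif did not share a ratio: Psmb6 and Psmb5 both hold the antioxidant core within 50 bases of the start, with ratios of 2.01 and 0.935, and Psmd9 at 0.281 holds it too. A match is a description of these letters and not evidence of a bound site.

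Genes that work with the proteasome but carry other names were counted from lists. Of 12 associated factors, each of which reached the floor, 3 lay 2-fold or more above PBS and 0 as far below, with a median log2 fold of 0.36. Those 3 (Akirin2, Ube3c and Zfand2a) were thinly counted, and 0 of the 7 well counted factors lay 2-fold or more apart. The shares of all genes over the floor given above, 15.5% higher and 16.3% lower at 2-fold, are the background for this and the next 3 lists. The 3 of 12 lies above it, and most of the other counts lie near or under it. The most abundant were Shfm1, a small lid subunit also called Sem1, at 675 CPM with IL-33 and 563 CPM with PBS (ratio 1.20, 1.11 to 1.30), and Pomp, the chaperone of the core, at 396 CPM with IL-33 and 309 CPM with PBS (ratio 1.28, 1.15 to 1.42). Of the factors that control proteasome gene transcription, 15 of 18 were over the floor, with 1 at least 2-fold higher, 2 at least 2-fold lower and a median of -0.10, which was 0.01 under TMM scaling. Irf1, an inducer of immunoproteasome genes, was at 180 CPM with IL-33 and 210 CPM with PBS (ratio 0.856, 0.751 to 0.978). The small Maf factor Maff was lower at 0.325 (0.250 to 0.421). Nfe2l1, the factor that restores proteasome genes when the proteasome is inhibited, had 48 counts with IL-33 and 50 with PBS, giving a ratio of 0.370 (0.244 to 0.561); it was chosen after its values were seen.

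Ubiquitin genes and shuttle factors had a median log2 fold of 0.05 over 16 genes, with 0 at least 2-fold higher and 1 at least 2-fold lower. The shuttle factor Ubqln1 was lower at 0.489 (0.405 to 0.592). Genes that handle peptides after the proteasome had a median of -0.06 over 13 genes (0.06 under TMM scaling), with 0 past 2-fold. Tap2 fell just short of that mark on CPM plus 1, with a log2 fold of 0.95. B2m, the light chain of MHC class I, was at 6324 CPM with IL-33 and 4331 CPM with PBS (ratio 1.46), and the chaperone Canx at 508 CPM with IL-33 and 534 CPM with PBS. Among other large complexes, complex I of the respiratory chain had a median of 0.29 over 35 genes and the cytosolic ribosome 0.20 over 73 genes. The chaperonin, a ring that folds proteins, had a median of -0.17 over 8 genes, or -0.04 under TMM scaling. By the sum of counts the ratios were 1.22 (1.19 to 1.26) for complex I, 1.18 (1.17 to 1.19) for the ribosome, 1.14 (1.12 to 1.16) for the proteasome genes and 0.946 (0.909 to 0.985) for the chaperonin, the last becoming 1.03 under TMM scaling. These sit side by side as descriptions, and whether they differ beyond variation between mice could not be tested.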

How the data were processed

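The deposited table held raw counts for 23337 gene symbols in 2 libraries, 1 per group. Per the submitters' processing notes, the tools were TopHat2 2.0.10 and Cufflinks 2.2.1 and the genome build mm10. The counting program, annotation and strand setting were not given in the sources used here. Per the labels' protocols, poly(A) RNA was converted to cDNA, amplified and fragmented by transposon, and read as pairs of 25 bp. No molecular identifiers are named, so intervals and floors cover counting error only. A count of 0 allows up to 3 counts, 0.735 CPM with IL-33 and 1.91 CPM with PBS.

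From the counts, CPM was taken on library totals, and ratios were given the exact conditional 95% interval. Odds ratios compare 2 genes or sums within libraries (exact conditional). A single library per group allowed no test. The gene lists, groups and thresholds were chosen with earlier results of these data known. Named in full were the cutting subunits, PA28, well counted members past 1.5-fold, others past 2-fold and the member nearest each group's median; other values are given as context. Some genes of the lists are not reported here by name. Transcript and coding lengths, positions and overlaps came from GENCODE M21 (GRCm38, the assembly of mm10), for the principal transcript; 20929 symbols matched directly and 1918 by an older name. Near-identical copies were stretches of at least 95% identity in transcripts of other genes, found with megablast. Any such stretch was found in 21 members. At least 50% of the transcript lay in such stretches for 8 members: Psma4, Psma5, Psmb3, Psmb5, Psmc1, Psmd2, Psmd11 and Psme2. Reads of Psmb7 with Nek6, Psmb8 with an antisense RNA, Psmb9 with Tap1, Psmd13 with Sirt3, Psmd9 with Gm26745 and Psmc3ip with Mlx share exonic bases and could be split or lost in counting. Scripts ran in Python 3.11.15 (scipy 1.17.1, pandas 2.3.3, numpy 2.4.6; plots, matplotlib 3.10.9) and were tested on simulated data. edgeR 4.0.16 under R 4.3.3 supplied TMM factors alone.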

Additional observations from a re-analysis of the deposited data

How the results depend on the processing

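Alternatives were TMM scaling, a total without the 10 most abundant genes, pseudocounts of 0.5 and 5 CPM, no floor and a floor of 20 CPM, centring on genes of like transcript length, leaving out Psmc3ip and, chosen after seeing the data, leaving out the 8 members with near-identical copies. Under TMM scaling the summed ratio of all members was 1.24 in place of 1.14, the members at least 1.5-fold higher numbered 8 in place of 5, and those at least 2-fold higher 5 in place of 3. The count at least 2-fold higher was 1 with the pseudocount of 5 CPM and 1 with centring on length, and 2 members in place of 4 were at least 2-fold lower with the floor of 20 CPM, which leaves out thin genes by construction. Without Psmb8 and Psmb5, also chosen after seeing the data, the immunoproteasome share per kilobase was 35.0% with IL-33 and 50.7% with PBS. With all 3 pairs it was 70.1% with IL-33 and 78.3% with PBS on raw counts, and 69.2% with IL-33 and 77.7% with PBS per coding kilobase, in place of 56.9% with IL-33 and 67.6% with PBS per kilobase of transcript; it was lower with IL-33 each way. The medians of the base, the immunoproteasome and the activators, between -0.06 and -0.02, were between 0.07 and 0.10 under TMM. The activators' median was also 0.01 without the 10 most abundant genes. Centring on length brought the median over all members to 0.04 in place of 0.09. By group, centring raised the medians of the alpha subunits to 0.31, the constitutive beta subunits to 0.37 and the lid to 0.31. The medians of the base, the immunoproteasome, the activators and the assembly chaperones fell. The other group medians kept their sign under these settings. Among single genes, only the ratio of Psme2 left its own interval under TMM scaling, at 1.33 in place of 1.23. TMM multiplies interval limits by the same factor as ratios. The upper limits of Psmd2, Psmd14, Psme3 and Psme4 then pass 1, with ratios of 0.899, 0.894, 0.703 and 0.873. Their lower levels with IL-33 thus rest on library totals. The lower limits of Psmb9 and Psmd1 pass 1 as well. No paired analysis was possible because each group held 1 library, and for the same reason no replicate could be left out. Depth limits the genes with few counts with PBS most, among them Psmd13 (7), Psmd3 (17), Psmb11 (19) and the assembly chaperones (19 to 62).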
